A study of Homo sapiens with 6 samples.

Results

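The interferon-stimulated antiviral genes described here are 51 genes, listed by name. Many, but not all, encode proteins that block virus replication or sense viral nucleic acid. Their rows were taken by gene symbol from a table of 60591 genes, and all 51 were found. The cells were KYSE150, an established line derived from human oesophageal squamous carcinoma, and TPA, a phorbol ester, activates protein kinase C. Cells were kept overnight without serum and then given TPA at 10 ng/ml for 24 h (3 libraries) or the solvent DMSO (3 libraries). The labels carry the same treatment text for both groups and state no dose or time for DMSO. All 6 libraries come from this single line. Whether the libraries of a group are separate cultures is not stated, and the p-values therefore reflect only the spread among libraries, which may be technical.

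Type I and type III interferons are secreted proteins that cells release on infection. Their receptors activate the kinases JAK1 and TYK2, which phosphorylate STAT proteins, STAT2 among them. STAT2 and IRF9 are part of the complex ISGF3, which binds a DNA element called the interferon-stimulated response element and raises transcription of a large set of genes. Many of these genes also have a low level of transcription without added interferon.

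The element searched for in the promoters is the core of the response element, GAAA followed by 2 bases of any kind and GAAA, or TTTC, 2 bases and TTTC where it lies on the other strand. Its matches in the genes that passed the test described below are printed first, because it is shared by genes that fell and genes that rose. Each line shows the match in capitals with 6 bases on either side, 5′ to 3′ on the gene's own strand, from RefSeq (GRCh38.p14). Positions give the first base of the match, counted back from -1 just before the annotated start.
DDX60, which fell, position -88: tgaaggGAAACTGAAAcctaag
DDX60, position -53: agaaagGAAACCGAAActcccg
IFIT3, which fell, position -156: gttaggTTTCATTTTCctcctc
IFIT3, position -122: aattagTTTCACTTTCcagttt
PARP12, which rose, position -10: ggccgcTTTCGGTTTCgtttcc
ISG20, which rose, position -69: aaactaGAAACTGAAAcagggt
The 250 bases searched upstream of the start are chr4:168318753-168319002 (minus strand) for DDX60, chr10:89327747-89327996 (plus) for IFIT3, chr7:140062952-140063201 (minus) for PARP12 and chr15:88638766-88639015 (plus) for ISG20. RSAD2, which fell, had no match in chr2:6865635-6865884 (plus), a window that overlaps its neighbour CMPK2. A match is a description of letters, and no match says only that these letters are not in this window.

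Of the 51 genes, 43 had a promoter in the RefSeq table, with a window of 250 bases before and 50 after the start. The motif, searched on both strands with overlaps allowed, was present in 28 of the 43 (65.1%) and in 996 of all 27305 promoters (3.65%). Some neighbours of genes that fell, which did not pass themselves, held it too, while CMPK2, next to RSAD2, did not. The sites of IFIT5, next to IFIT3, and DDX60L, next to DDX60, are shown in the same way.
IFIT5, position -45: attaagTTTCGGTTTCtgaagc
IFIT5, position -19: gtttagTTTCGATTTCttaagt
IFIT5, position -4: cttaagTTTCAGTTTCtgagcg
DDX60L, position -80: actgcgGAAATCGAAAaggcct
DDX60L, position -50: agaaaaGAAACCGAAActaact
Among the tested members with a promoter, 23 held the motif, and of these 2 fell and 2 rose. Of 12 without it 1 fell and 0 rose. With the block the same 23 had 7 lower and 2 higher (30.4% and 8.7%), and the 12 had 2 and 2. These counts carry no test. Outside the members, 305 tested genes held the motif, of which 0.984% fell and 0.984% rose, against 0.493% and 1.11% of 11162 genes without it. With the block these shares were 8.85% and 8.52% against 7.2% and 6.04%.

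TPA and DMSO were compared with edgeR's quasi-likelihood test on the deposited read counts over all genes that passed a filter on low counts, with Benjamini-Hochberg adjustment at 0.05. This is called the group fit. Levels are in CPM, the standard library-scaled read count, after TMM normalisation (a scaling that assumes most genes do not change). The median log2 fold change of all tested genes was -0.11 with TMM, -0.01 with RLE factors and -0.36 with library size only, and fold changes are read relative to it. Library totals ran from 27702329 to 33965547 counts. Libraries numbered 1 deviated together from their group means (correlation 0.546), and those numbered 2 and 3 together in the other direction. A second fit, chosen from these same data, carries the library number as a block. DMSO 2 was as close to TPA 3 (0.356) as to TPA 2 (0.345), so the data do not pair numbers 2 and 3. Libraries that share a number are called a pair. In pairs 2 and 3 the log2 ratio of TPA over DMSO followed transcript GC content across 12003 expressed genes (Spearman correlation 0.653, against -0.115 in pair 1). The remaining fit, GC-corrected and blocked, keeps the block after the GC trend of every library has been taken out. Of 9 squamous markers 8 were above 1 CPM in every library, with sums of 1690 to 3440 CPM in DMSO and 1310 to 2610 in TPA. Leukocyte markers summed to 4.94 to 5.67 CPM in DMSO and 3.59 to 8.54 in TPA, mostly CD3E and CD68, and PTPRC, the defining leukocyte marker, was at most 0.18 CPM. Fibroblast and endothelial markers summed to 8.03 to 14.5 and 3.95 to 12.7 CPM, mostly COL1A1, with DCN at 0 in every library. Their part in the results was not tested.

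Interferon-stimulated genes did not move in a single direction. DDX60, IFIT3 and RSAD2 fell about 7-fold (6.89, 7.27 and 6.83) after TPA. ISG20 and PARP12 rose 2.71- and 2.51-fold. Of the 51 genes 41 passed the filter on low counts and 10 did not, and the filter keeps a gene that is high in either group. Of the 41 tested, 3 fell (7.32%, against 0.394% of all 21825 genes tested) and 2 rose (4.88%, against 0.861%), while 36 did not pass. At an unadjusted p under 0.05 there were 9 lower and 8 higher members, against 10.7% and 11.3% of all tested genes. With the replicate block 11 were lower (26.8%, against 6.52% of all genes) and 4 higher (9.76%, against 4.58%). The GC-corrected blocked fit called 13 lower (31.7%, against 10.8%) and 8 higher (19.5%, against 9.19%). All 15 members called with the block were called in the same direction in the GC-corrected blocked fit, from the same libraries. The median log2 fold change of the 41 was -0.16, close to the -0.11 of all tested genes, and single members ran from -2.86 to 1.44.

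**Figure D1:**
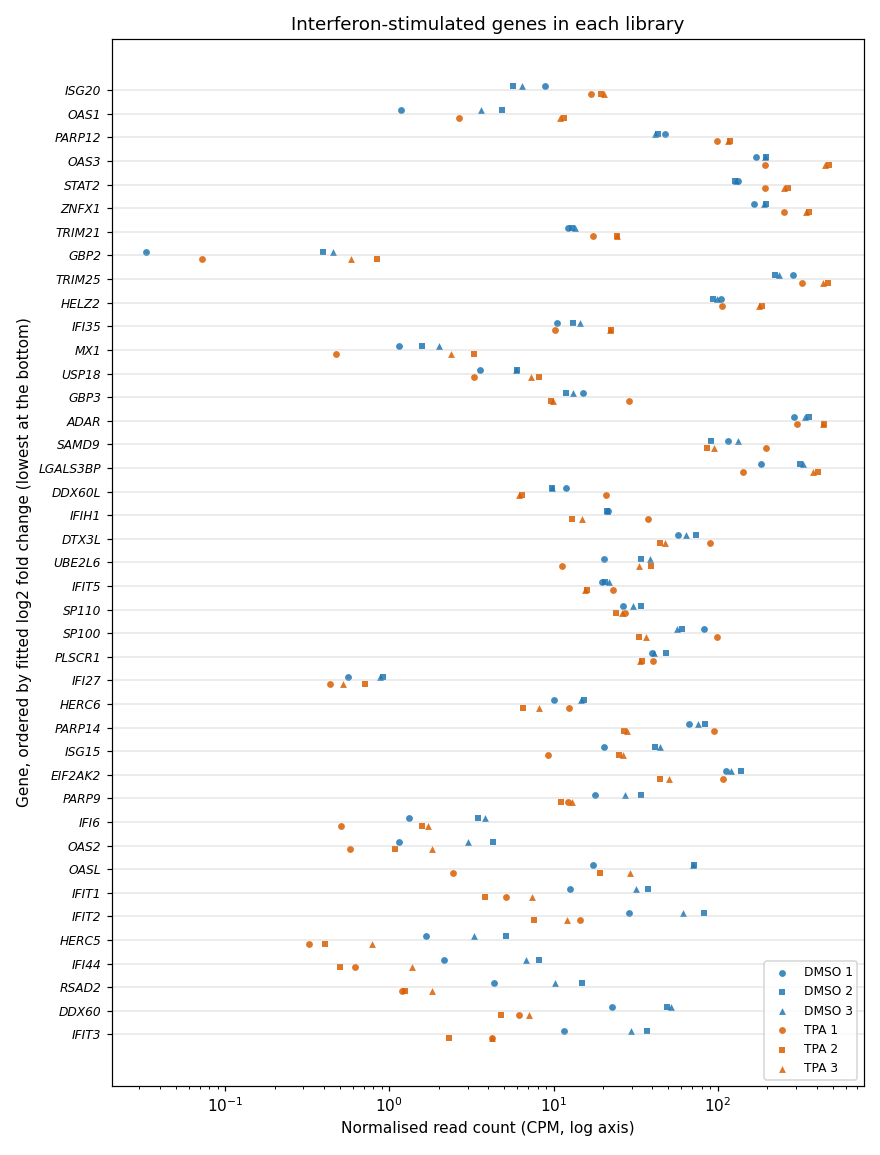
Normalised read counts (CPM, log axis) of the 41 tested interferon-stimulated genes in each of the 3 DMSO and 3 TPA libraries, ordered by fitted log2 fold change with the lowest at the bottom. Points are single libraries; a count of 0 would not show. IFIT3, DDX60 and RSAD2 at the bottom sit lower in every TPA library, while ISG20 and PARP12 near the top sit higher in every TPA library.

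Other settings moved these counts, and the share of all tested genes called in each is given with them as lower and higher. Members called were 3 and 2 with RLE factors (0.353% and 1.05% of all genes), 4 and 1 with upper-quartile factors (0.467% and 0.838%), 4 and 1 with library size only (1% and 0.577%), 7 and 2 with no filter (0.5% and 1.06%) and 3 and 2 with the stricter filter, 1 CPM or more in all libraries of either group (0.758% and 1.05%). DESeq2 called 8 and 7 (4.19% and 7.8%), limma-voom 2 and 2 (0.596% and 1.13%), and the GC correction without the block 5 and 4 (3.23% and 3.38%). Members tested were 49 with no filter, 39 with the stricter filter and 41 in the other settings given here.

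Single libraries decided many calls. Without DMSO 1 there were 5 lower and 0 higher of 44 tested members (against 0.169% and 0.449% of all genes), with 6 higher at an unadjusted p under 0.05. Without TPA 1 there were 16 and 12 of 44 (against 27.8% and 24.6% of all genes). Without both libraries numbered 1 there were 23 and 14 of 44 (against 33.3% and 32.2% of all genes). No member was called without DMSO 2 or DMSO 3 (0% of all genes), without TPA 2 (0.00437% and 0.105%) or without TPA 3 (0% and 0.00873%). At an unadjusted p under 0.05 these fits had 14, 14, 16 and 18 members (34.1%, 34.1%, 36.4% and 40.9% of those tested) in edgeR, the only tool run on these subsets, against 11.6%, 12.2%, 13.7% and 12.4% of all genes. The directions of DDX60, IFIT3, RSAD2, ISG20 and PARP12 were kept with each single library left out, with log2 fold changes of -3.07 to -2.58, -3.21 to -2.51, -3.12 to -2.33, 1.32 to 1.66 and 1.29 to 1.51. All TPA libraries lay below all DMSO libraries for 9 tested members (22%, against 15.2% of all tested genes) and above them for 7 (17.1%, against 14.3%).

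The IFIT proteins bind viral RNA, and IFIT1, IFIT2 and IFIT3 act in 1 complex. Their genes lie together on chromosome 10 with IFIT5, which encodes a related RNA-binding protein. IFIT3 (chromosome 10, 89327894 to 89340971, GRCh38) was at 11.5, 36.9 and 29.7 CPM in DMSO 1, 2 and 3 and at 4.21, 2.32 and 4.21 CPM in TPA 1, 2 and 3. Every TPA library was below every DMSO library, and DMSO 1 was the lowest of its group. The mean fell from 26 ± 13.1 to 3.58 ± 1.09 CPM (± SD, n = 3 in each group), which is -2.86 ± 0.48 on the log2 scale (± SE, adjusted p = 0.0471). IFIT2 had 28.9, 82.0 and 61.3 CPM in DMSO and 14.5, 7.60 and 12.0 CPM in TPA. It missed the threshold in the group fit (-2.34 ± 0.44, adjusted p = 0.0552) and passed with the block (adjusted p = 0.0091). IFIT1 had 12.6, 37.6 and 31.8 CPM in DMSO and 5.15, 3.80 and 7.37 CPM in TPA. It too missed the threshold in the group fit (-2.33 ± 0.46, adjusted p = 0.0592) and passed with the block (0.0053) and in DESeq2 (0.000154). For both genes the groups did not overlap, and DMSO 1 was again the lowest DMSO library. IFIT5 had 19.7, 20.7 and 21.9 CPM in DMSO and 22.9, 15.9 and 15.5 CPM in TPA, with TPA 1 above all other libraries and TPA 2 and 3 below them. Its log2 fold change was -0.20 ± 0.24 (adjusted p = 0.652). With the GC correction and the block it had the opposite sign, 0.35 (adjusted p = 0.114).

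The OAS enzymes make an oligoadenylate messenger in response to double-stranded RNA, which activates the nuclease RNase L. ISG20 is a separate exonuclease that degrades RNA. ISG20 (chromosome 15, 88636153 to 88656483) was at 8.89, 5.64 and 6.39 CPM in DMSO and 17.0, 19.4 and 20.3 CPM in TPA. Every TPA library exceeded every DMSO library, and the gene rose by log2 1.44 ± 0.26 (adjusted p = 0.0498). The call lies at the threshold: with upper-quartile factors the adjusted p was 0.0507, with library size only 0.0569, and without DMSO 1 0.0585. OAS1 and its relatives OAS2 and OASL had fold changes of opposite sign. OAS1 had 1.18, 4.82 and 3.62 CPM in DMSO and 2.65, 11.5 and 10.9 CPM in TPA, so TPA 1 lay within the DMSO range. OAS1 did not pass in the group fit (1.38 ± 0.66, adjusted p = 0.27) and was higher with the block (adjusted p = 0.0127). OASL, an OAS-like protein without the enzyme activity, had 17.4, 71.4 and 71.0 CPM in DMSO and 2.43, 19.3 and 29.1 CPM in TPA. The groups overlapped through DMSO 1, while in each pair the TPA library was lower. OASL passed with the block (-1.97, adjusted p = 0.00503) but not in the group fit (-1.65 ± 0.85, adjusted p = 0.302) or DESeq2 (0.207). OAS2 had 1.15, 4.30 and 3.00 CPM in DMSO and 0.58, 1.08 and 1.83 CPM in TPA (-1.27 ± 0.58, adjusted p = 0.25). Of the 3 fits, the GC-corrected blocked one called it lower (adjusted p = 0.0425). OAS3 had 171, 198 and 194 CPM in DMSO and 193, 478 and 451 CPM in TPA, with TPA 1 level with DMSO. It did not pass in any of the 3 fits (a fitted fold of 1.99, adjusted p = 0.151 in the group fit) but passed in DESeq2 (0.0472).

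DDX60 is a helicase that promotes sensing of viral RNA, and DDX60L is its neighbouring paralogue. DDX60 (chromosome 4, 168216293 to 168318807) was at 22.6, 49.3 and 51.9 CPM in DMSO and 6.16, 4.77 and 7.04 CPM in TPA. No TPA library reached a DMSO library, and the mean fell from 41.3 ± 16.2 to 5.99 ± 1.15 CPM (log2 -2.78 ± 0.38, adjusted p = 0.031). With the GC correction and the block its log2 fold change was -2.14 (adjusted p = 0.00225). DDX60L had 11.9, 9.76 and 9.81 CPM in DMSO and 20.8, 6.42 and 6.13 CPM in TPA, with TPA 1 highest of all and TPA 2 and 3 lowest (0.08 ± 0.49, adjusted p = 0.932). The other 5 genes of this role did not pass in the group fit. ZNFX1, an RNA helicase that senses double-stranded RNA, had 167, 197 and 190 CPM in DMSO and 253, 361 and 344 CPM in TPA. Its groups did not overlap, yet its 0.79 ± 0.21 missed the threshold in the group fit (adjusted p = 0.0935) and with the block (0.0536). It passed after the GC correction with the block (0.026) and in DESeq2 (0.0104). HELZ2, a transcriptional co-activator with helicase domains, had 104, 93.5 and 99.5 CPM in DMSO and 106, 187 and 178 CPM in TPA, with TPA 1 just above the DMSO range (0.66 ± 0.26, adjusted p = 0.192). EIF2AK2, the kinase PKR that stops translation on binding double-stranded RNA, had 113, 139 and 121 CPM in DMSO and 107, 44.2 and 50.8 CPM in TPA. It did not pass (-0.88 ± 0.36, adjusted p = 0.202), and TPA 1 lay just under the DMSO range. IFIH1, the RNA sensor MDA5, had nearly equal DMSO libraries (21.3 ± 0.15 CPM) and 37.4, 13 and 15 CPM in TPA, on both sides of DMSO (0.03 ± 0.41). ADAR, which edits adenosine to inosine in double-stranded RNA, changed by 0.25 ± 0.22 (adjusted p = 0.533).

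**Figure D2:**
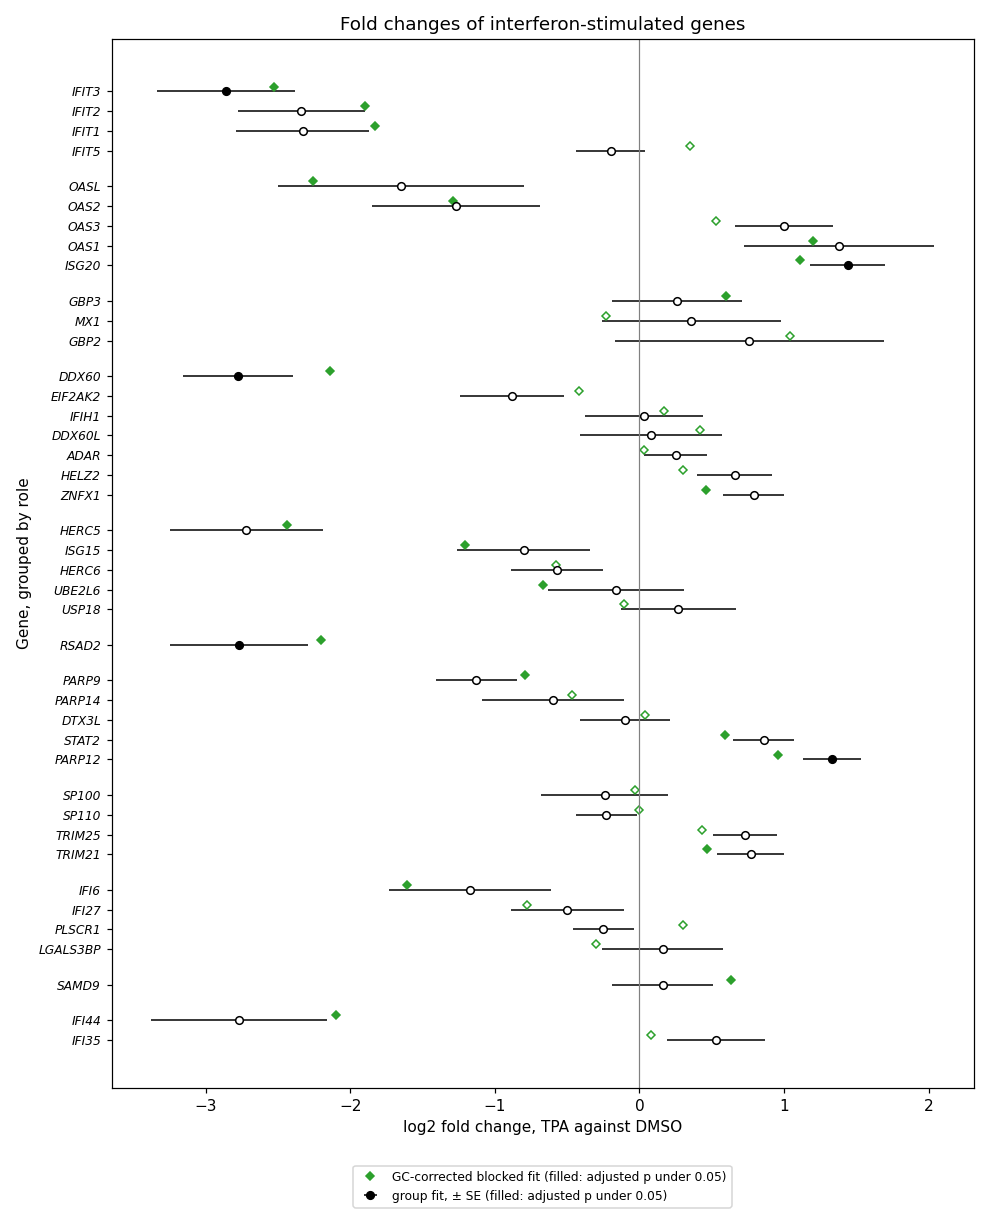
Log2 fold change of TPA against DMSO for the 41 tested genes, grouped by role: black circles are the group fit with SE bars, green diamonds the GC-corrected blocked fit, and filled symbols have an adjusted p under 0.05. IFIT3, DDX60 and RSAD2 lie between -2.86 and -2.77 in the group fit, and ISG20 and PARP12 lie at 1.44 and 1.33.

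RSAD2 encodes viperin, which makes a chain-terminating nucleotide that stops viral polymerases, and CMPK2 is a nucleotide kinase encoded beside it. RSAD2 (chromosome 2, 6865806 to 6898239) had 4.31, 14.8 and 10.2 CPM in DMSO and 1.20, 1.24 and 1.83 CPM in TPA. All TPA libraries were lower, and RSAD2 fell by 2.77 ± 0.48 on the log2 scale (adjusted p = 0.0487). With limma-voom its adjusted p was 0.0524, and with the GC correction without the block 0.0553. CMPK2 had 2 counts over DMSO and 0 over TPA, too few to compare.

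ISG15 is a ubiquitin-like modifier, which UBE2L6 and HERC5 attach to other proteins and USP18 removes. HERC6 is a relative of HERC5. None of these 5 genes passed in the group fit (1 lower at an unadjusted p under 0.05, 1 lower with DESeq2 and 0 with limma-voom). HERC5, the main ISG15 ligase in human cells, had 1.68, 5.10 and 3.29 CPM in DMSO and 0.326, 0.403 and 0.783 CPM in TPA, without overlap. Its -2.72 ± 0.53 on the log2 scale missed the threshold (adjusted p = 0.059) and passed with the block (0.00418). ISG15 itself had 20.2, 41.5 and 44.3 CPM in DMSO and 9.21, 25.2 and 26.6 CPM in TPA, lower in each pair but overlapping through DMSO 1. With the block ISG15 was called lower (-0.86, adjusted p = 0.043, against 0.356 without). UBE2L6 had -0.16 ± 0.47 and was called lower only in the GC-corrected blocked fit (-0.67, adjusted p = 0.0207). HERC6 (-0.57 ± 0.32) and USP18, which also damps the interferon receptor (0.27 ± 0.40), did not pass in any of the 3 fits.

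STAT2 carries the activation domain of ISGF3, and PARP9 and DTX3L form a complex of an ADP-ribosyltransferase and a ubiquitin ligase. PARP12 (chromosome 7, 140023744 to 140063721), an ADP-ribosyltransferase that inhibits virus replication, was at 47.9, 43.4 and 41.3 CPM in DMSO and 99.5, 118 and 115 CPM in TPA. It rose in every library, from 44.2 ± 3.36 to 111 ± 9.92 CPM (log2 1.33 ± 0.20, adjusted p = 0.0394). In the GC-corrected blocked fit the rise was 0.96 (adjusted p = 0.0054), and without DMSO 1 the adjusted p was 0.0658. STAT2 had 133, 128 and 130 CPM in DMSO and 193, 266 and 253 CPM in TPA. Its groups did not overlap, and its 0.86 ± 0.21 passed with the block (adjusted p = 0.0464) and in DESeq2 (0.00281) but not in the group fit (0.0747). PARP9 had 17.8, 34.1 and 27.3 CPM in DMSO and 12.3, 11.1 and 12.9 CPM in TPA, without overlap, and was lower with the block (-1.09, adjusted p = 0.0297, against 0.0821). DTX3L shares a promoter region and 217 exonic bases with PARP9 on the opposite strand, so without a stated strand setting some reads cannot be assigned. DTX3L (-0.10 ± 0.31) and PARP14, a macrodomain ADP-ribosyltransferase (-0.60 ± 0.49), were above DMSO in TPA 1 and below it in TPA 2 and 3.

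The remaining roles held no gene that passed in the group fit. Among GTPases that block virus entry or assembly, MX1 (0.36 ± 0.62), GBP2 (0.76 ± 0.93) and GBP3 (0.26 ± 0.45) did not pass, with 0 at an unadjusted p under 0.05 and 0 with DESeq2 or limma-voom. GBP3 was called higher only in the GC-corrected blocked fit (0.60, adjusted p = 0.0396). Among ubiquitin ligases and nuclear body proteins, TRIM21, an antibody receptor inside cells, and TRIM25, a ligase of the RIG-I pathway, were higher in every TPA library than in every DMSO library. Their log2 fold changes were 0.77 ± 0.23 and 0.73 ± 0.22 (adjusted p = 0.115 for each), and TRIM21 passed after the GC correction with the block (0.0366). SP100 (-0.24 ± 0.44) and SP110 (-0.23 ± 0.21) did not pass. With DESeq2 2 of these 4 genes were called, both higher, and with limma-voom 0. Of membrane and secreted proteins, IFI6, a small protein of mitochondria and the endoplasmic reticulum, had 1.32, 3.48 and 3.81 CPM in DMSO and 0.508, 1.58 and 1.73 CPM in TPA. It was lower in each pair and was called with the block (-1.20, adjusted p = 0.0376) but not in the group fit (0.274) or DESeq2 (0.263). IFI27 (-0.50 ± 0.39), PLSCR1, a phospholipid scramblase (-0.25 ± 0.21), and LGALS3BP, a secreted galectin ligand (0.16 ± 0.42), did not pass in any of the 3 fits. SAMD9, a translation-blocking antiviral protein, had 0.16 ± 0.35, with -0.07 under scaling by library size only, and was called higher only in the GC-corrected blocked fit (0.63, adjusted p = 0.0229). IFI44, a cytoplasmic antiviral protein, had 2.14, 8.12 and 6.84 CPM in DMSO and 0.616, 0.504 and 1.37 CPM in TPA, without overlap. Its -2.77 ± 0.61 passed with the block (adjusted p = 0.00474) and in DESeq2 (0.000434) but not in the group fit (0.0676). IFI35, a binding partner of NMI, had 0.53 ± 0.34 (adjusted p = 0.403).

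The 10 genes that failed the filter had few counts, and the ratios of DMSO to TPA below are of summed counts scaled by TMM library size with exact 95% binomial intervals, which cover counting error only. BST2, the tethering protein that holds virus particles at the membrane, had 65 counts in the DMSO libraries and 4 in the TPA libraries, and the ratio was 15.2 (5.67 to 57.6). SAMD9L had 52 and 5 counts, a ratio of 9.75 (3.92 to 31.3), beside its neighbour SAMD9, which did not pass. RTP4 had 30 and 5 counts (5.62, 2.16 to 18.6) and TRIM22 34 and 9 (3.54, 1.66 to 8.39). DMSO 2 held 25 of the TRIM22 counts, and without that library its ratio was 1.44. With any 1 library left out the ratio ran from 3.72 to 9.16 for RTP4, from 6.69 to 15.9 for SAMD9L and from 10.1 to 20.4 for BST2, which had 0 TPA counts without TPA 3. IFI44L, the neighbour of IFI44, had 19 counts over DMSO and 0 over TPA, at least 5.94-fold lower with a floor of 3 counts over the group. These 5 genes were all lower in TPA by summed counts, but the group fit did not test them. The fit with no filter tested 49 members, these 5 among them, and its values for them are not given here. MX2 had 7 and 4 counts and GBP1 14 and 7, with intervals that span equality. EPSTI1 and XAF1 had 0 counts in all 6 libraries, which allows up to 0.0915 to 0.109 CPM per library.

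Per kilobase of exon, the highest DMSO levels were those of LGALS3BP (77.4 CPM per kb), ISG15 (37.6), ADAR (34.1), TRIM25 (26.2) and OAS3 (22.7). The genes that fell were of middle or low level on this scale, with IFIT3 at 9.86, DDX60 at 6.12 and RSAD2 at 2.02 CPM per kb in DMSO, and 1.35, 0.888 and 0.294 in TPA.

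Members that neighbour each other on a chromosome were compared within libraries. Of 18 pairs of members with gene bodies within 100000 bases, 12 had both genes tested. The log2 ratio of the 2 genes within a library does not depend on scaling, and it did not overlap between groups in 9 of the 12 pairs (75%), against 32.1% of 58131 pairs of tested genes within the same distance. The 12 pairs share genes with each other, so they are not independent. The exact two-sided permutation p was 0.1 for each of these, the smallest that 3 against 3 libraries allow, and 0.133 after Benjamini-Hochberg adjustment over the 12. DDX60 over DDX60L was 0.92, 2.33 and 2.40 in DMSO and -1.75, -0.42 and 0.20 in TPA, a difference of -2.54. OAS1 over OAS2 was 0.04, 0.16 and 0.27 in DMSO and 2.07, 3.34 and 2.54 in TPA, a difference of 2.49, with both genes in 1 cluster on chromosome 12. IFIT3 over IFIT5 was -0.78, 0.83 and 0.44 in DMSO and -2.43, -2.74 and -1.87 in TPA, a difference of -2.51. HERC6 over HERC5 went from a mean of 2.09 to 4.03, and OAS1 over OAS3 overlapped between groups (exact permutation p = 0.7). IFIT2 over IFIT1 hardly moved, from 1.09 to 1.06.

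The libraries numbered 1 stood apart over all tested genes, and in this gene set too. DMSO 1 was the lowest DMSO library for 31 of 41 tested members (75.6%, against 41.7% of all tested genes). For the genes that fell, DMSO 1 lay between the other DMSO libraries and TPA, so pair 1 gave smaller ratios. IFIT3 had log2 ratios of -1.43, -3.95 and -2.80 in pairs 1, 2 and 3, DDX60 -1.87, -3.35 and -2.87, and RSAD2 -1.79, -3.50 and -2.43. In all 3 pairs 14 members were lower (34.1%, against 29.6% of all tested genes) and 11 were higher (26.8%, against 22.6%). In 15 members pair 1 went against pairs 2 and 3, with 11 of these higher in pair 1 and lower in the others, as in PARP14 (0.50, -1.63 and -1.44) and IFIH1 (0.80, -0.70 and -0.50). The share of all tested genes with this pattern was not counted. Among expressed genes in the bin of GC content that holds PARP14 (41 to 43.2%), the median log2 ratio was 0.07 in pair 1 and -0.68 in pairs 2 and 3. In the bin that holds IFIH1 (43.2 to 45.7%) it was 0.07 and -0.34. In the lowest bin (1201 genes), which holds 2 tested members, it was 0.11 and -0.91. The median over the 41 was 0.03, -0.47 and -0.47 in pairs 1, 2 and 3, against -0.02, -0.19 and -0.17 for all tested genes. What sets the libraries numbered 1 apart was not tested.

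**Figure D3:**
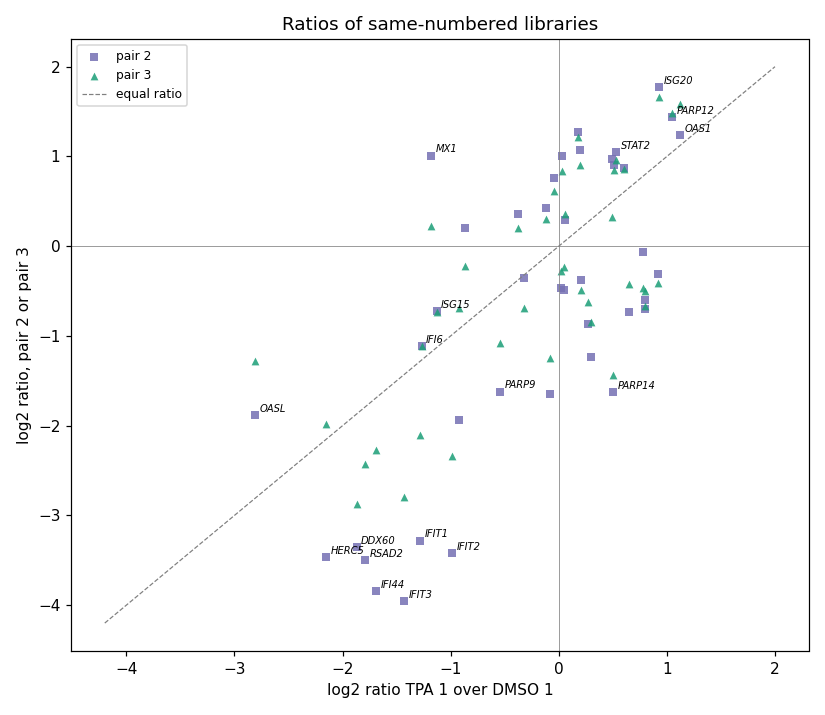
Log2 ratio of TPA over DMSO in pair 1 (x axis) against that in pair 2 (squares) and pair 3 (triangles) for the 41 tested genes, with a dashed line of equal ratio. Labels stand at the pair 2 point of genes called with the block and of MX1 and PARP14, and the genes with the strongest falls, such as IFIT3 (-1.43, -3.95 and -2.80), lie below the line.

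These genes had a lower median transcript GC content than all tested genes. The median GC content of the longest transcript was 44.4% over the 51 members (range 36.0 to 67.2%) and 48.2% over all tested genes. In pairs 2 and 3 the median log2 ratio was -0.91 in the lowest of 10 equal bins of GC content and 0.57 in the highest. DDX60 has a GC content of 39.1%, and the bin that holds it (38.6 to 40.9%) had a median log2 fold change of -0.40 in the group fit, against its -2.78. In pairs 2 and 3 the median of that bin was -0.88, and DDX60 had -3.35 and -2.87. ISG15, IFI6 and OASL have GC contents of 63.4, 56.1 and 51.4%, and each of these had a lower fold change after the GC correction with the block (-1.21, -1.61 and -2.26) than with the block alone (-0.86, -1.20 and -1.97). PARP12, ISG20 and STAT2, at 54.5, 53 and 50.2%, had smaller rises after it (0.96, 1.11 and 0.59, against 1.33, 1.46 and 0.85).

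**Figure D4:**
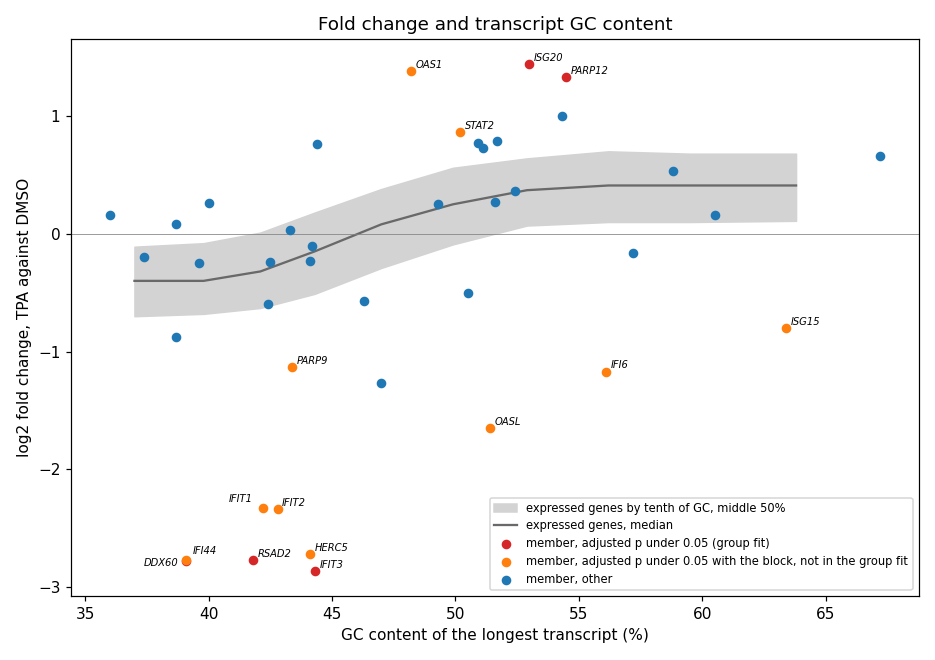
Log2 fold change in the group fit (y axis) against GC content of the longest transcript (x axis): the grey line and band are the median and middle 50% of 12003 expressed genes in 10 bins of GC content, and points are the 41 tested members. The genes near -2.8 lie far below the band at their GC content, and ISG20 and PARP12 lie above it.

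The rest of the interferon pathway was read from 7 further lists, with 113 distinct genes of which 94 were tested. Of these 0 fell and 1 rose in the group fit, against 0.394% and 0.861% of all tested genes. At an unadjusted p under 0.05, 7 were lower and 18 higher, against 10.7% and 11.3% of all tested genes. DESeq2 called 4 and 15, against 4.19% and 7.8%, and limma-voom 0 and 2, against 0.596% and 1.13%. The gene that rose was TICAM1, the adaptor TRIF of Toll-like receptor 3, from 45.2 ± 8.40 to 122 ± 12.8 CPM (log2 1.44 ± 0.23, adjusted p = 0.041). With the block 5 fell and 12 rose, against 6.52% and 4.58% of all tested genes. These shares of all tested genes also stand beside the list counts below.

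The interferon genes themselves were at 0 or low in both groups. IFNB1, IFNA2, IFNW1 and IFNG had 0 counts in all libraries, and IFNL1 had 17 counts over DMSO and 3 over TPA (ratio 5.31, 1.54 to 28.3, counting error only). IFNE (-0.49 ± 0.97) and IFNK (-0.06 ± 0.65, with 0.02 under RLE factors) were the 2 tested ligands. Of 10 tested receptor and JAK-STAT genes none passed (0 lower and 2 higher at an unadjusted p under 0.05, 1 with DESeq2, 0 with limma-voom). IFNGR2, a chain of the interferon gamma receptor, had 53.1 ± 0.804 CPM in DMSO and 117 ± 22.9 in TPA (1.14 ± 0.22, adjusted p = 0.059, 0.0185 with the block). The kinase gene TYK2 had 0.61 ± 0.26. IRF9, the DNA-binding part of ISGF3, averaged 5.56 ± 0.457 CPM in DMSO against 7.34 ± 1.39 CPM in TPA (0.40 ± 0.25, adjusted p = 0.386). The type III receptor chain gene IFNLR1 had 1 count in all.

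Among 10 tested sensors and adaptors, IKBKE, a kinase that activates IRF3, was higher with the block (1.22 ± 0.33, adjusted p = 0.0971 without and 0.0133 with it), and TLR3, the sensor upstream of TICAM1, was lower with the block (-1.67 ± 0.50, adjusted p = 0.115 and 0.0129). Of 6 tested interferon regulatory factors none passed in the group fit (DESeq2 and limma-voom each called 1 higher, and an unadjusted p under 0.05 was reached by 1 lower and 2 higher). IRF7, which amplifies type I interferon, had -0.70 ± 0.25 and IRF1 0.50 ± 0.33, and neither passed with or without the block. IRF7 was called lower in the GC-corrected blocked fit (-1.03, adjusted p = 0.00881). The inhibitors of JAK signalling SOCS1 (1.17 ± 0.27) and SOCS3 (0.94 ± 0.25) had adjusted p of 0.0722 and 0.0889, and 0.0433 and 0.0412 with the block. In the GC-corrected blocked fit SOCS1 did not pass (0.0743) and SOCS3 did (0.0198). Of 39 tested other interferon-stimulated genes none passed (5 lower and 2 higher at an unadjusted p under 0.05, 3 and 2 with DESeq2, 0 with limma-voom), and the block called 4 lower and 2 higher. BATF2, a transcription factor gene, had 2.07 ± 0.51 (adjusted p = 0.0789, 0.0153 with the block) and TNFSF10, the death ligand TRAIL, -2.29 ± 0.58 (0.0829, 0.0357 with the block). In the GC-corrected blocked fit BATF2 passed (0.0302) and TNFSF10 did not (0.0575). Class I antigen presentation genes had the highest list median, 0.69 over 17 genes, and 0.29 in the GC-corrected blocked fit. None of the 17 passed (DESeq2 called 5 higher and limma-voom 0, and an unadjusted p under 0.05 was reached by 6, all higher). With the block 4 were higher, among them HLA-E (1.12 ± 0.24, adjusted p = 0.0651 and 0.0239) and PSME2, a proteasome activator (1.09 ± 0.24, 0.0676 and 0.0219).

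**Figure D5:**
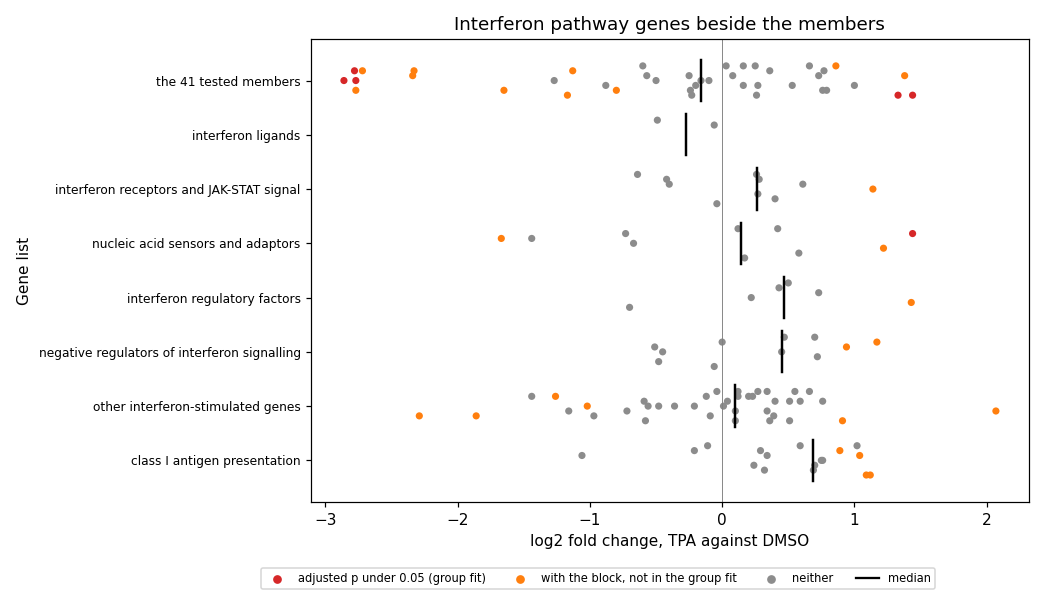
Log2 fold change of TPA against DMSO for the 41 tested members and the tested genes of the 7 pathway lists, with the list median as a black bar. Red points passed in the group fit, orange points with the replicate block but not in the group fit. The members reach -2.86, lower than any gene of the other lists, and the class I antigen presentation list has the highest median, 0.69.

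The mean profile of the 41 members, each set to the same spread over the 6 libraries, was highest in DMSO 2 and DMSO 3 (0.39 and 0.31) and lowest in DMSO 1 and TPA 1 (-0.30 and -0.27). The genes outside the set that were most like it, of 14025 with an average log2 CPM of at least 1, included SAMHD1, a restriction factor that depletes nucleotides (Pearson correlation 0.995 over 6 libraries), ARL6IP5 (0.994), FGF1 (0.990), PCDH7 (0.989) and EFNA5 (0.981). SAMHD1 lay between 46 and 62.4 CPM in DMSO and between 47.1 and 53.4 CPM in TPA. These libraries share depth and the contrast between number 1 and the others, so the likeness is a description. Of the 41 members 20 correlated with this mean above 0.5 and 13 below 0, so it stands for only part of them.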

How the data were processed

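RNA of 6 KYSE150 libraries was sequenced. The submitters' processing notes name HISAT2 2.1.0, HTSeq 0.12.4, hg38 and GRCh38. Which annotation was counted, with which strand setting and from which read layout, is not given in the sources used here. The authors deposited raw counts per gene symbol, with no normalization. Columns named control were taken as DMSO. The members and gene lists were chosen with earlier results of these data known.

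TPA was compared with DMSO in edgeR 4.0.16 (R 4.3.3) by the quasi-likelihood test, with filterByExpr, TMM factors and 1 group term, and adjusted over 21825 genes. The SE was taken as the size of the log2 fold change over the root of its F statistic. To check the pairing, each library's deviation from its group mean was correlated with that of its namesake. The values were 0.546, 0.345 and 0.369 for numbers 1 to 3. Crossing numbers 2 and 3 gave values at least as high (0.356 for TPA 3 and 0.374 for TPA 2). The check therefore set number 1 apart but could not decide how numbers 2 and 3 pair. Using the shared number as the block was a choice for these, since no label ties a number to a culture. Alternatives were other scaling factors and filters, DESeq2 1.42.0, limma-voom (limma 3.58.1), the block, a GC correction (a spline with 5 degrees of freedom on the longest GENCODE 29 transcript, available for 96.3% of tested genes), a threshold of 0.01, and libraries left out. Pair ratios are differences of log2 CPM with a prior count of 2. On simulated data the group fit recovered 1.75% of 2-fold, 64.3% of 4-fold and 98.6% of 8-fold changes. The blocked fit recovered 36.8%, 94.3% and 100% of them. A gene that did not pass may therefore still have changed, above all near 2-fold.

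Named by rule were members that passed, the 2 lowest adjusted p of each role and pathway list, and IRF9, IRF1 and IRF7. Some genes that the rule names are not reported here. Other members and genes were named after their values were seen. Promoters are shown as short sites because the windows overlap annotated untranslated exons.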

Additional observations from a re-analysis of the deposited data

How the results depend on the processing

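Against 3 lower and 2 higher members in the group fit, no filter gave 7 lower, DESeq2 8 and 7, the replicate block 11 and 4, the GC correction with the block 13 and 8, and the GC correction without it 5 and 4. Upper-quartile factors and library size only each gave 1 higher. Leaving out both libraries numbered 1 gave 23 and 14, from 2 close libraries against 2, and an adjusted p under 0.01 gave 0 and 0. Leaving out each library in turn gave 0 to 16 lower and 0 to 12 higher. The shares of all tested genes in these settings are given above, except at the threshold of 0.01, where none was counted. Pathway genes (0 lower and 1 higher) gave 4 and 15 with DESeq2, against 4.19% and 7.8% of all tested genes. The replicate block gave 5 and 12 (against 6.52% and 4.58%). The GC correction gave 12 and 19 with the block (against 10.8% and 9.19%) and 1 and 9 without it (against 3.23% and 3.38%). Leaving out both libraries numbered 1 gave 26 and 53 (against 33.3% and 32.2%). RLE factors, the filter of at least 1 CPM and limma-voom gave 2 higher (against 1.05%, 1.05% and 1.13% of all tested genes). No filter gave 4 higher (against 1.06%), and the threshold of 0.01 gave 0. Single libraries left out gave 0 to 17 lower and 0 to 44 higher, the most without TPA 1 (against 27.8% and 24.6%). The cause of these differences was not tested. The median of the tested members ranged from -0.43 (library size only) to 0.00 (GC correction, no block) around its -0.16.

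Signs reversed in 16 genes given in the text, none of which passed in the group fit. Over single libraries left out GBP3 ran from -0.35 to 0.54, SAMD9 from -0.20 to 0.39, IFNE from -2.67 to 0.06, IFNK from -0.92 to 0.29, DDX60L from -0.63 to 0.38, DTX3L from -0.38 to 0.09, IFIH1 from -0.49 to 0.31, LGALS3BP from -0.07 to 0.62, MX1 from -0.12 to 0.94, SP100 from -0.82 to 0.04 and UBE2L6 from -0.46 to 0.33. DDX60L and IFIH1 were called lower without TPA 1. Without both libraries numbered 1 GBP3 had -0.21, SAMD9 -0.14, DDX60L -0.49, IFIH1 -0.45 and UBE2L6 0.14. With library size only SAMD9 had -0.07, ADAR -0.01, DDX60L -0.14, IFIH1 -0.20, LGALS3BP -0.11 and USP18 0.00. DDX60L had -0.16 and IFIH1 -0.14 with both limma-voom and the replicate block, and IFIH1 had -0.02 with the filter of 1 CPM. IFNK had 0.02 with RLE factors and with DESeq2 and 0.01 with no filter. After the GC correction, with and then without blocking, IFNK had 0.25 and 0.28, DTX3L 0.04 and 0.05, IFIT5 0.35 and 0.38, LGALS3BP -0.30 in both, MX1 -0.23 and -0.08, PLSCR1 0.30 and 0.35, SP110 0.00 in both and USP18 -0.11 and -0.10. Genes under 1 CPM rest on few counts. The replicate block kept the calls of the 5 members that passed.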
